A study of Mus musculus with 11 samples.

Results

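The transporters described here move bile acids and other organic anions through the mouse hepatocyte. They are 10 genes chosen by name, and all 10 were found by symbol among the 20893 genes of the deposited table. They were split by the direction of transport: 5 uptake carriers of the sinusoidal membrane (Slc10a1, Slco1a1, Slco1a4, Slco1b2 and Slco2b1), 3 exporters of the canalicular membrane (Abcb11, Abcb4 and Abcc2) and 2 exporters of the basolateral membrane (Abcc3 and Abcc4). All 10 passed the filter on low values, which kept 14244 genes. Bulk RNA-seq had been done on 11 whole livers, 1 library each, of C57BL/6 mice kept on doxycycline food. The 4 controls carry the labels ROSA26-rtTA-IRES-EGFP and WT and had 7 days of doxycycline, while the induced livers are labelled ROSA26-rtTA-IRES-EGFP and tetYAP and had 3 days (4 livers) or 7 days (3 livers). The controls of the 3-day livers were therefore on doxycycline for longer than the livers set against them. In the induced mice the tet-YAP transgene encodes a constitutively active YAP, YAP S127A, and the reverse transactivator is released by a Cre driven from the albumin promoter, so induction is aimed at albumin-expressing cells, whereas the RNA came from the whole organ. Ages are not in the labels.

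Bile formation starts with uptake from sinusoidal blood: the sodium-dependent carrier encoded by Slc10a1 takes up conjugated bile acids, and the Slco carriers take up bilirubin, steroid conjugates, drugs and unconjugated bile acids. At the opposite pole, ATP-driven pumps push bile acids (Abcb11), phosphatidylcholine (Abcb4) and glucuronide or glutathione conjugates (Abcc2) into the canaliculus. Abcc3 and Abcc4 return conjugates and bile acids to the blood, a route that is used more when bile flow is impaired.

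The values are eRPKM, exonic reads per kilobase of each gene's exons, scaled to the reads of the library, which puts genes of different length on one scale. A gene was called when its Benjamini-Hochberg adjusted p from limma, run on log2(eRPKM + 0.5) over all tested genes, was under 0.01 and its log2 fold change was above 0.5 in size. Library depth ran from 1251343 to 5938733 reads on genes. The 7-day livers held 5312422 to 5938733 reads and the controls 1251343 to 5494778. The reads on the most abundant hepatocyte genes did not follow depth: Alb held 2417 to 3102 reads and Apob 15219 to 20940, a spread of 1.28-fold and 1.38-fold, while depth spread 4.75-fold. The eRPKM of such genes was therefore highest in the shallowest library, control 4, and why was not tested. Levels of abundant genes, and their order against scarcer ones, therefore depend on depth as well: Slc10a1 had 864 reads in control 4 and 2017 in control 2. For several of the abundant transporters, reads in control 2, whose depth is like that of the 7-day livers, are given as well. Hepatocyte markers were high in every library. The Yap1 row was not called in either comparison with control (adjusted p of 0.832 and 0.917 from limma, where controls held 13.9 to 21.1 eRPKM, 3-day livers 15.3 to 19.3 and 7-day livers 17.4 to 19.0). The sources used here do not say whether transgene reads count to it, so it does not check the labels.

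At 3 days none of the 10 transporters was called, by limma or with any of the alternatives tried, against 0.0421% of all tested genes called in either direction. One of the 10, Abcc2, had an unadjusted limma p under 0.05, a share below the 12.1% of all tested genes that did. At 7 days 5 of the 10 had fallen against control, where 5.77% of tested genes were called lower: the uptake carriers Slco1a1, Slco1b2 and Slc10a1 and the canalicular exporters Abcb11 and Abcc2. Abcc4 alone had risen, where 18.0% of tested genes were called higher. The other 4 transporters, Slco1a4, Slco2b1, Abcb4 and Abcc3, were not called. By the ranges alone, all 7-day livers lay below all controls for the 5 that fell, as for 13.3% of tested genes, and above all controls for Abcc3 and Abcc4, as for 36.7% of tested genes. The median log2 fold change at 7 days was -2.05 over the 5 uptake genes, -0.89 over the 3 canalicular exporters and 1.04 over the 2 basolateral exporters, beside 0.26 over all tested genes. The last value depends on scaling. It was 0.02 with median-ratio size factors and -0.08 after quantile normalization, and the split of all calls moved from 2561 higher and 822 lower to 1948 and 1281 or to 1857 and 1821. The calls among the 10 at 7 days came out as 5 lower and 1 higher with size factors too, and after quantile normalization they were 5 lower and 1 higher, with Abcc3 in place of Abcc4.

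**Figure D1:**
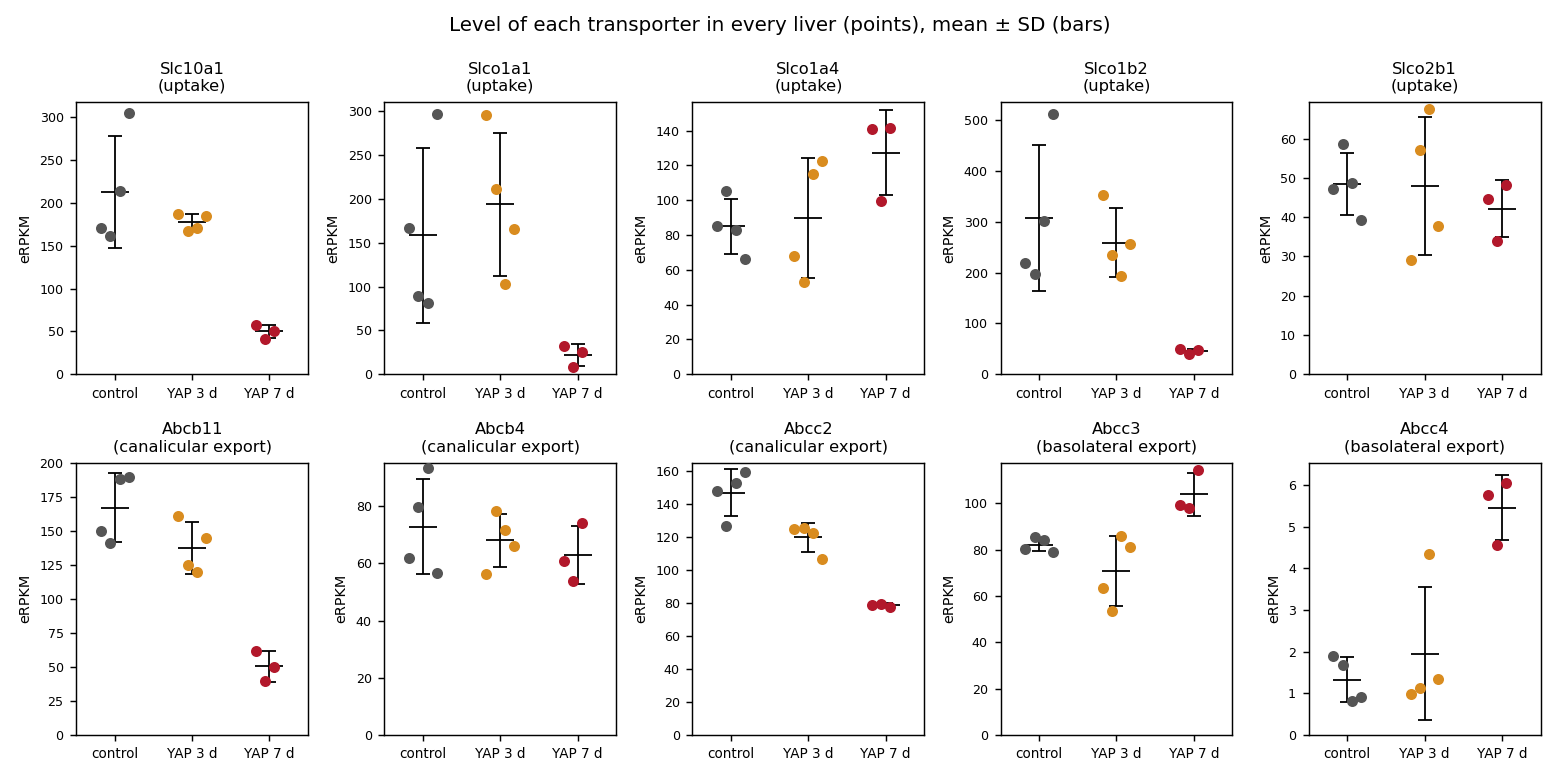
Level of each of the 10 transporters (y axis, eRPKM from 0) in the 4 control livers, the 4 livers at 3 days and the 3 livers at 7 days of YAP induction, 1 point per liver, with the mean and SD as bars. The 7-day points of Slc10a1, Slco1a1, Slco1b2, Abcb11 and Abcc2 all lie below every control point, and those of Abcc3 and Abcc4 all lie above.

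Among the uptake carriers, Slc10a1 (mm9 chr12:82054172-82068971, minus strand) encodes the main sodium-dependent carrier of conjugated bile acids. Its level was 170.4, 161.9, 214.6 and 305.1 eRPKM in control livers 1 to 4, 186.9, 167.1, 170.5 and 185.4 at 3 days, and 57.3, 41.4 and 51.0 at 7 days. The 3-day livers sat inside the range of the controls and had hardly any spread of their own, while every 7-day liver was below every other liver. Slc10a1 fell 4.14-fold by 7 days, a log2 fold change of -2.05 ± 0.21 (SE) with an adjusted p of 1.7e-05 (limma), and at 3 days it was -0.22 ± 0.19 (adjusted p = 0.684, limma). At matched depth, control 2 held 2017 reads on Slc10a1 and the 7-day livers 695, 557 and 613. With controls 1 and 2 alone as controls the log2 fold change was -1.74 ± 0.15.

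Slco1b2 (mm9 chr6:141578039-141635167, plus strand) encodes the liver-enriched anion carrier through which bilirubin and many drugs enter the hepatocyte. It was the highest of the 10 in control livers, with 219.7, 196.8, 300.8 and 512.9 eRPKM, and in 3-day livers, with 352.5, 233.8, 193.8 and 256.4 eRPKM. The 7-day livers held 49.5, 40.5 and 47.2 eRPKM, and did not overlap the other groups. Slco1b2 thus fell by a log2 fold change of -2.64 ± 0.29 (SE), or 6.21-fold (adjusted p = 3.26e-05, limma). Control 4, the shallowest library, gave the highest value. At matched depth the reads were 3678 in control 2 against 901, 819 and 851 at 7 days, and with controls 1 and 2 alone the log2 fold change was -2.18 ± 0.22.

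Slco1a1 (mm9 chr6:141855803-141895483, minus strand) encodes a carrier of steroid conjugates that mouse liver is known to make more of in males. It was the most variable of the uptake genes, at 166.4, 89.2, 81.3 and 296.4 eRPKM in controls, 295.9, 210.9, 102.7 and 165.3 at 3 days, and 32.5, 8.001 and 25.4 at 7 days. The 3-day livers overlapped the controls and the 7-day livers lay below all of both. Its log2 fold change at 7 days, -2.83 ± 0.52 (SE), was a 7.13-fold fall (adjusted p = 0.00107, limma), with a 95% interval from -3.96 to -1.71. The exact two-sided permutation p was 0.0857, unadjusted, against 0.0286 for Slc10a1, Slco1b2, Abcb11 and Abcc2. Whether Slco1a1 or Slco1b2 fell further depended on the fit: with log2 Xist as a covariate the values were -2.40 and -2.53, and with female livers only -2.15 and -2.40. With female livers only the log2 fold change of Slco1a1 was -2.15 ± 0.50 and no longer called (adjusted p = 0.0125, limma), and with depth as a covariate it was -2.09 (adjusted p = 0.0275, limma).

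Slco1a4 (mm9 chr6:141753961-141804720, minus strand) lies next to Slco1a1 in the same cluster and encodes a carrier for bile acids and cardiac glycosides, known to be higher in female mouse liver. Its 7-day values, 141.1, 99.4 and 141.6 eRPKM, were above the means of both other groups, but the control range, 66.4 to 105.1, and the 3-day range, 52.9 to 122.8, overlapped them. The log2 fold change at 7 days was 0.58 ± 0.28 (SE) and was not called (adjusted p = 0.118, limma), with a 95% interval from -0.02 to 1.19. Of the 50-base words in the coding transcripts of Slco1a1 and Slco1a4, 2.15% and 2.68% also occur in other genes, mostly of the same cluster.

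Slco2b1 (mm9 chr7:106806314-106859850, minus strand), a carrier of steroid sulfates, held 47.3, 58.7, 48.7 and 39.3 eRPKM in controls, 29.1, 57.2, 67.5 and 37.8 at 3 days, and 44.6, 33.9 and 48.1 at 7 days. All 3 groups overlapped. The log2 fold change at 7 days was -0.20 (95% interval -0.76 to 0.36, adjusted p = 0.576, limma). The log2 fold changes of Slco1a1 and Slco1b2 lie outside this interval. Of the 5612 exonic bases of Slco2b1, 7.45% are shared with an antisense transcript, Gm15635, and the counting did not use strand.

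The 5 uptake genes together summed to 689.0, 611.7, 728.5 and 1220 eRPKM in controls, 932.4, 721.9, 649.5 and 767.8 at 3 days, and 324.9, 223.2 and 313.2 at 7 days. The make-up of that sum also differed between groups. Slco1b2 took 36.9% ± 5.57 (SD, n = 4) of it in controls and 16.2% ± 1.74 (n = 3) at 7 days, and Slco1a4 took 11.6% ± 4.82 in controls and 44.4% ± 0.90 at 7 days. By mean level Slco1a4 thereby went from the fourth most abundant uptake RNA to the first. Controls 2 and 3, female by sex-linked RNA as were all 7-day livers, already held more Slco1a4 than Slco1a1. The values were 105.1 against 89.2 eRPKM in control 2 and 83.1 against 81.3 in control 3. Such shares are tied to one another, and the fall of 3 carriers raises the share of the other 2.

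Among the canalicular exporters, Abcb11 (mm9 chr2:69076339-69180671, minus strand) encodes the bile salt export pump, the rate-limiting step of bile acid secretion. It held 149.8, 140.8, 188.3 and 189.3 eRPKM in controls, 160.9, 124.6, 119.5 and 144.8 at 3 days, and 61.6, 39.3 and 50.1 at 7 days. The 3-day livers overlapped the controls, with 2 of the 4 below every control, and the 7-day livers lay below all others. For Abcb11 the log2 fold change was -0.28 ± 0.17 (SE) at 3 days (adjusted p = 0.545, limma) and -1.73 ± 0.19 at 7 days, a 3.32-fold fall (adjusted p = 2.55e-05, limma). At matched depth the reads were 3967 in control 2 and 1692, 1197 and 1363 at 7 days. Of its exonic bases 3.07% lie under the antisense genes Gm13613 and Gm13614.

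Abcc2 (mm9 chr19:43856682-43912441, plus strand) encodes the pump for bilirubin glucuronide and glutathione conjugates. It had its highest level in controls and its lowest at 7 days: 148.4, 126.7, 153.1 and 159.6 eRPKM in controls, 124.9, 125.4, 122.5 and 107.0 at 3 days, and 79.0, 79.7 and 77.5 at 7 days. The 3-day livers all lay below the controls, if only just for the nearest pair, as for 2.25% of tested genes, and the 7-day livers below both. The log2 fold change at 3 days was -0.29 ± 0.12 (SE) and not called (adjusted p = 0.369, limma; exact two-sided permutation p = 0.0286, unadjusted, the smallest that 4 livers against 4 can give). At 7 days it was -0.89 ± 0.13 (adjusted p = 0.000238, limma). The 7-day livers varied little, with an SD of 1.12 eRPKM around 78.7.

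Abcb4 (mm9 chr5:8893717-8959225, plus strand) encodes the floppase that moves phosphatidylcholine into bile. It held 62.0, 79.6, 93.3 and 56.7 eRPKM in controls, 56.2, 78.2, 71.7 and 66.0 at 3 days, and 61.0, 53.7 and 74.0 at 7 days. The groups overlapped throughout, and the log2 fold change at 7 days was -0.20 (95% interval -0.61 to 0.22, adjusted p = 0.453, limma). In this fit the values of Abcb11 and Abcc2, -1.73 and -0.89, lie outside this interval. The 95% interval of Abcc2, -1.18 to -0.60, meets it, and the exporters were not tested against each other. Among female livers the value of Abcb4 was -0.46 (95% interval -0.88 to -0.05), an interval that holds the -0.82 of Abcc2 in the same livers. With size factors it was -0.47 (-0.88 to -0.06) and after quantile normalization -0.04. Abcb4 was called in none of these. Of the 50-base words in its coding transcripts, 3.37% also occur in Abcb1a or Abcb1b, both of which rose at 7 days from lower levels.

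The bile salt pump exceeded the phospholipid floppase in every control and 3-day liver and was level with it or lower at 7 days. The ratio of Abcb11 to Abcb4 was 2.41, 1.77, 2.02 and 3.34 in controls, 2.86, 1.59, 1.67 and 2.19 at 3 days, and 1.01, 0.731 and 0.677 at 7 days. No 7-day liver reached the lowest control.

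Of the basolateral exporters, Abcc3 (mm9 chr11:94204612-94254311, minus strand) encodes a pump for glucuronides and bile acids. Its controls were close together at 80.5, 85.4, 84.0 and 79.0 eRPKM, the 3-day livers spread over 63.4, 53.4, 85.8 and 81.0, and the 7-day livers held 99.3, 98.1 and 114.6. Every 7-day liver was above every other liver. The log2 fold change at 7 days was nevertheless small, 0.33 ± 0.17 (SE), close to the 0.26 of the median gene, and it was not called (adjusted p = 0.134, limma; exact two-sided permutation p = 0.0286, unadjusted). It was 0.06 with size factors and 0.71 after quantile normalization, where it was called (adjusted p = 0.00437, limma), so whether Abcc3 rose depended on the scaling.

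Abcc4 (mm9 chr14:118881914-119105441, minus strand) encodes a pump for bile acids with glutathione, sulfates and cyclic nucleotides, and is known to be scarce in healthy liver. It was by far the lowest of the 10, at 1.90, 1.68, 0.821 and 0.921 eRPKM in controls, or 45, 56, 12 and 7 reads. The 3-day livers held 0.988, 1.13, 4.34 and 1.34 eRPKM (16, 25, 97 and 30 reads), so that 1 liver stood apart near the 7-day level, and the 7-day livers held 5.78, 4.57 and 6.04 eRPKM (188, 165 and 195 reads). Abcc4 rose by a log2 fold change of 1.74 ± 0.39 (SE) at 7 days, 3.35-fold on this scale (adjusted p = 0.00394, limma), with all 3 livers above every control. Its call was less firm than those of the 5 that fell: it was lost in 11 of 27 alternatives, among them leaving out control 3 or 4 or any of the 7-day livers (adjusted p 0.0111 to 0.0204, limma), while the log2 fold change stayed between 1.10 and 2.03. At matched depth the reads were 56 in control 2 against 165 to 195.

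**Figure D2:**
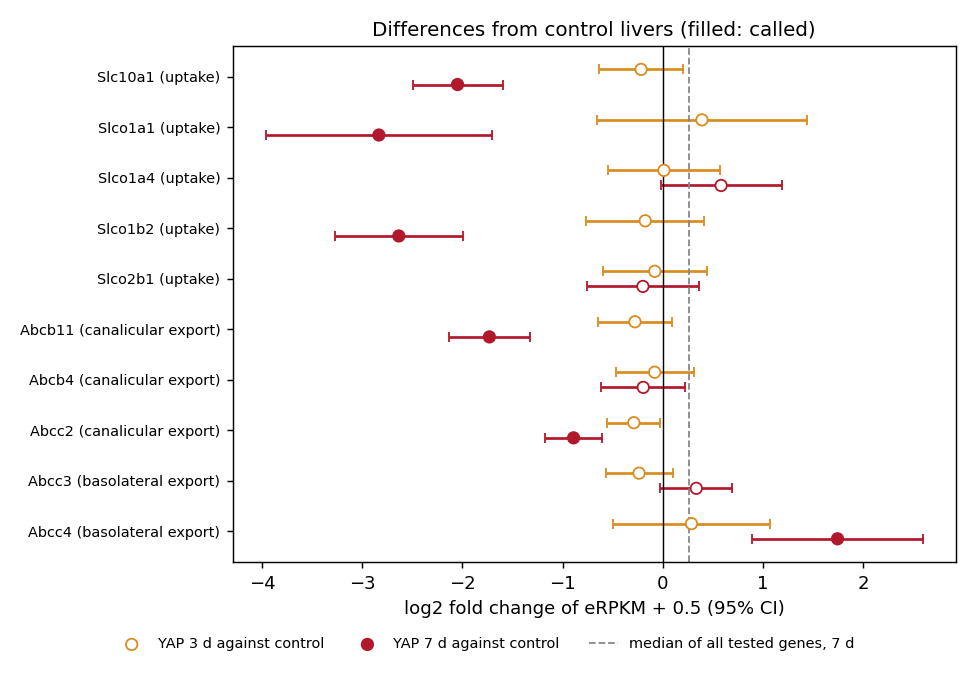
Log2 fold change of eRPKM + 0.5 (x axis) with its 95% interval for each transporter at 3 days (orange) and 7 days (red) against control, filled where called, with the median of all tested genes at 7 days as a dashed line. At 3 days no marker is filled, and at 7 days 5 are filled to the left of 0 and 1, Abcc4 at 1.74, to the right.

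The balance of the 2 export routes, taken on RNA levels, also differed at 7 days. The basolateral sum (Abcc3 and Abcc4) was 0.229, 0.251, 0.195 and 0.197 of the canalicular sum (Abcb11, Abcb4 and Abcc2) in controls, 0.188, 0.166, 0.287 and 0.259 at 3 days, and 0.521, 0.594 and 0.598 at 7 days. Every 7-day liver was above the highest of the other livers. Abcc3, which was not called, made up most of the basolateral sum (mean 82.2 of 83.6 eRPKM in controls and 104.0 of 109.5 at 7 days). The mean canalicular sum was 386.9 eRPKM in controls and 192.0 at 7 days. Within the MRP family, the ratio of Abcc3 to Abcc2 was 0.495 to 0.674 in controls and 0.426 to 0.757 at 3 days, and 1.26, 1.23 and 1.48 at 7 days, so that the basolateral RNA exceeded the canalicular one only in the 7-day livers of this set. These ratios are taken within a liver, and the scaling of the library cancels out of them, but the depth dependence of abundant genes does not. Abcb11 over Abcb4 was 3.34 in the shallow control 4 and 1.77 in the deep control 2, and Slco1b2 over Slco2b1 was 13.1 and 3.35. The 7-day livers, all deep, held 0.677 to 1.01 and 0.980 to 1.19, below control 2 as well. The ratio of Abcc4 to Abcc3 overlapped between groups, at 0.0466 to 0.0582 at 7 days and 0.0506 in 3-day liver 3. No test was run on the ratios.

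**Figure D3:**
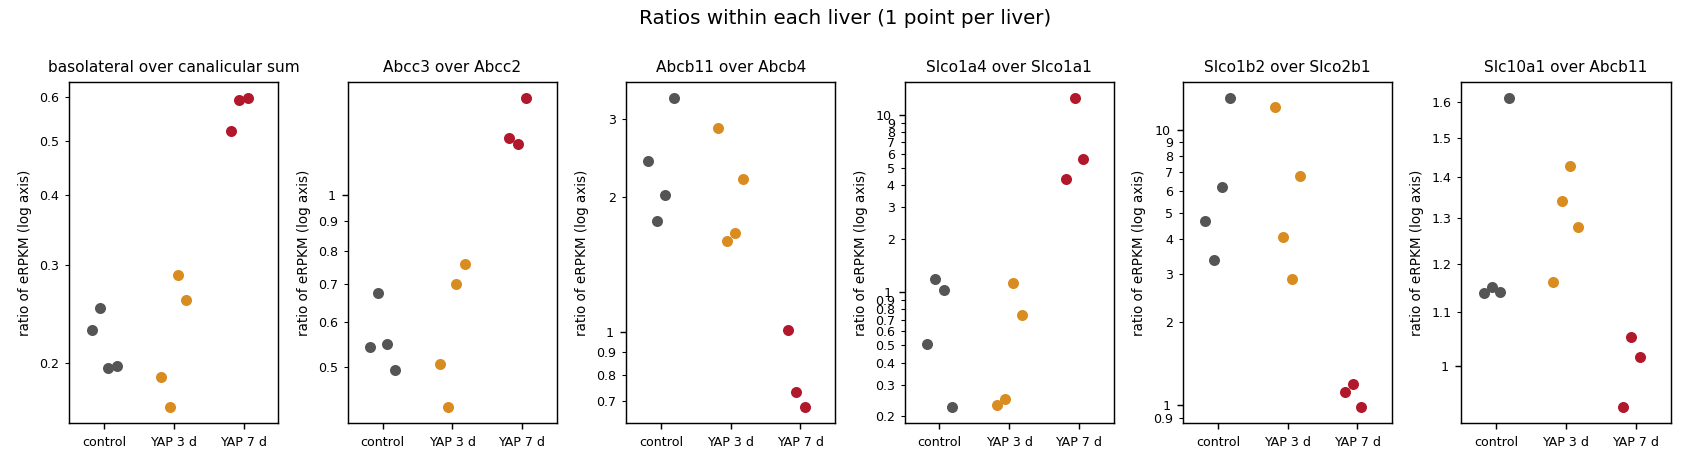
Ratios of eRPKM within each liver (log y axes, 1 point per liver) for the basolateral over the canalicular sum and for 5 pairs of transporters, in control, 3-day and 7-day livers. The 7-day points lie apart from all others in each of these panels, at 0.521 to 0.598 for the basolateral over the canalicular sum.

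Between 3 and 7 days the same 5 genes that were called lower at 7 days against control were called lower, where 5.31% of tested genes were, and none was called higher, where 14.0% were. The log2 fold changes were -3.22 for Slco1a1, -2.46 for Slco1b2, -1.83 for Slc10a1, -1.45 for Abcb11 and -0.60 for Abcc2 (adjusted p 4.8e-05 to 0.00435, limma). This comparison shares its 7-day livers with the one against control. Abcc4 (1.46 ± 0.39) and Abcc3 (0.57 ± 0.17) missed the threshold with adjusted p of 0.0127 and 0.0191 (limma), and both were called once 3-day liver 3, the liver with 4.34 eRPKM of Abcc4, was left out (log2 fold changes of 1.85 and 0.67). For Abcc2 the call was lost in 10 of 27 alternatives, including each single 7-day liver left out, 3-day liver 1 or 2 left out, and quantile normalization, where the log2 fold change was -0.22.

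The order of the 10 levels turned over with time. In control livers it ran Slco1b2, Slc10a1, Abcb11, Slco1a1, Abcc2, Slco1a4, Abcc3, Abcb4, Slco2b1 and Abcc4, and the ranges of neighbours overlapped except between Abcc2 and Slco1a4 and between Slco2b1 and Abcc4. At 7 days Slco1a4 (127.4 eRPKM) and Abcc3 (104.0) led, with overlapping ranges, followed by Abcc2 (78.7) and Abcb4 (62.9). Abcb11 (50.3), Slc10a1 (49.9), Slco1b2 (45.7) and Slco2b1 (42.2) then overlapped one after another, and Slco1a1 (21.9) and Abcc4 (5.46) each stood apart. The control means of the abundant genes are raised by the shallow controls 3 and 4, but in control 2 the order also began with Slco1b2, Slc10a1 and Abcb11 (196.8, 161.9 and 140.8 eRPKM). Slco1b2, which led in controls at a mean of 307.6 eRPKM, was at 7 days level with Slco2b1, whose control mean was 48.5.

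The sex of the livers, read from Xist and Ddx3y, bears on some of these values. Controls were 2 female and 2 male, 3-day livers 2 and 2, and all 3 livers at 7 days were female. In a fit of sex and group over the 8 control and 3-day livers, none of the 10 was called, where 0.393% of tested genes were called in either direction, and 2, Slco1a1 and Slco1a4, had an unadjusted limma p under 0.05, as had 8.04% of tested genes. Slco1a1 came nearest: 109.6 ± 38.2 eRPKM (SD, n = 4) in females and 242.4 ± 64.7 in males, with every male above every female, as for 1.0% of tested genes, and a log2 difference, female minus male, of -1.16 ± 0.24 (SE, adjusted p = 0.0757, limma). Slco1a4 was at 106.5 ± 17.2 in females and 68.1 ± 13.2 in males, with a log2 difference of 0.65 ± 0.20 (adjusted p = 0.322, limma). Abcc3 was the other gene whose sexes did not overlap, with every female (80.98 to 85.8 eRPKM) above every male (53.4 to 80.5), as for 3.67% of tested genes, and a log2 difference of 0.30 ± 0.16 (adjusted p = 0.687, limma). Among female livers Abcc3 at 7 days differed from control by 0.29 ± 0.15 on the log2 scale and was not called. Among females, Slco1a4 at 7 days differed from 3 days by 0.08 ± 0.21 on the log2 scale and from control by 0.43 ± 0.21. For the 4 carriers and pumps Slc10a1, Slco1b2, Abcb11 and Abcc2 the calls at 7 days held among female livers, with log2 fold changes of -1.90, -2.40, -1.71 and -0.82, and for Abcc4 the value was 1.81 but not called (adjusted p = 0.014, limma).

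**Figure D4:**
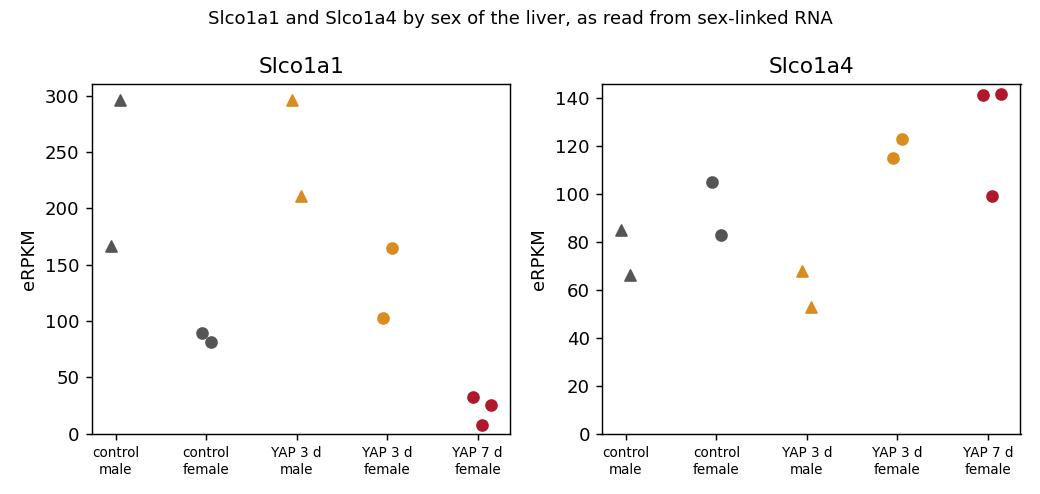
eRPKM of Slco1a1 (left) and Slco1a4 (right) from 0, in male (triangles) and female (circles) livers of each group, 1 point per liver. Male livers are higher for Slco1a1 and mostly lower for Slco1a4, and the 7-day livers, all female, lie at 8.001 to 32.5 for Slco1a1 and 99.4 to 141.6 for Slco1a4.

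The RefSeq promoters of the genes called at 7 days are shown because 5 of them fell together, and Slco1a4 is added as the uncalled neighbour of Slco1a1. RefSeq (GRCm38.p6) gave 13 start sites for 9 of the 10 genes, Abcc3 being the one without an entry. The 250 bases before each start were searched on both strands for AGGTCA (the half-site of nuclear receptors), CAAAGTCCA (HNF4), GTTAAT (HNF1 half-site), GGAATG (TEAD) and TGACNNNGC (the core of the antioxidant response element). The last 140 bases before the start are printed 5′ to 3′ on the strand of the gene, with matches on either strand in capitals.
Slc10a1, first start, chr12:80968706-80968845, minus strand: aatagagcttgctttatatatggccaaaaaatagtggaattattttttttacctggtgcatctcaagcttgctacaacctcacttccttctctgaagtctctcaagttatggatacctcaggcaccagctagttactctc
Slc10a1, second start, chr12:80968080-80968219, minus strand: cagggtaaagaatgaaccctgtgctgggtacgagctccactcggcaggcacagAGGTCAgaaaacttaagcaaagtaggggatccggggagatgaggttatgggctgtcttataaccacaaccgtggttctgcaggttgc
Slco1a1, chr6:141946963-141947102, minus strand: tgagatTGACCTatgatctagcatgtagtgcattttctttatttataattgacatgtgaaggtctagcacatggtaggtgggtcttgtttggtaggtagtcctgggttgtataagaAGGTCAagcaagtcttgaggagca
Slco1b2, chr6:141629378-141629517, plus strand: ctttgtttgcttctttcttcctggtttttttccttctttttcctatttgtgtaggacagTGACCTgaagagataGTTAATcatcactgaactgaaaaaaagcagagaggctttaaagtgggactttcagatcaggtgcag
Abcb11, chr2:69342617-69342756, minus strand: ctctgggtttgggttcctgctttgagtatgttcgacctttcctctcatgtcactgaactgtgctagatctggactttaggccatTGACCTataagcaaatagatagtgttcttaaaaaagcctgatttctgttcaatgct
Abcc2, chr19:43782168-43782307, plus strand: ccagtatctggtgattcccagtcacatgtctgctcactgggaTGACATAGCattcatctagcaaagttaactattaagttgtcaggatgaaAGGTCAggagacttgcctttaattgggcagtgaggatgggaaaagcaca
Abcc4, first start, chr14:118706220-118706359, minus strand: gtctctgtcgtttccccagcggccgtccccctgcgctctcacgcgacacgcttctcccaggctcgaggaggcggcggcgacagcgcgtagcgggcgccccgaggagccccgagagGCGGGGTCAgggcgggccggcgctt
Abcc4, second start, chr14:118676932-118677071, minus strand: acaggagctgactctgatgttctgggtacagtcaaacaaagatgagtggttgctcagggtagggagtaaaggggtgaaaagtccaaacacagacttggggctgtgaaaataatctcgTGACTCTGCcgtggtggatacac
Slco1a4, chr6:141856221-141856360, minus strand: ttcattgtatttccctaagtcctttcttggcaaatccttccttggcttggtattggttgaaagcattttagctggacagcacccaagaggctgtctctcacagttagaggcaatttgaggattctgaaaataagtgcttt

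AGGTCA or its complement was found before a start of each of the 5 genes that fell at 7 days (for Slc10a1 at the second of its 2 starts), and before no start of Slco1a4, Slco2b1, Abcb4 or Abcc4. Of all 32851 RefSeq promoters of this length 14.0% hold it. TGACNNNGC was found before both starts of Abcc4 and before Abcc2, beside 10.2% of all promoters. GTTAAT was found only before Slco1b2 (6.43% of all promoters) and GGAATG at 2 of the 3 starts of Slco2b1 (12.6% of all promoters), which was not called. CAAAGTCCA, which 0.384% of promoters hold, was found in none of them. The letters are matches in a short window, not binding sites, and no binding was measured here.

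The other transporters of the same families were taken from lists. Of 31 tested genes of the remaining Slco and Slc10, Slc22 and Slc47, and ABC and OST genes, 8 had risen and 8 had fallen at 7 days. Over all tested genes 18.0% were called higher and 5.77% lower. The median log2 fold change of the 31 was 0.15 beside 0.26 over all tested genes. None was called at 3 days. With depth as a covariate the counts fell to 1 higher and 7 lower.

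Those that fell averaged at least 13.3 eRPKM in controls, in whole-liver RNA that does not give the cell of origin. Slc22a7, an organic anion carrier, fell from a mean of 13.3 eRPKM in controls to 0.733 (log2 fold change -3.34 ± 0.46). Slc47a1, the canalicular extruder of organic cations (-1.33), Slc22a30 (-1.07), and from the Slc10 family Slc10a5 (-1.35) and the bile acid carrier Slc10a2 (-1.25) fell less. Of the exporters, Abcg8, a subunit of the canalicular sterol pump (-1.83 ± 0.31), and Abcc6 (-0.90) fell.

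Those that rose were mostly low in control liver. Abcb1a, a drug efflux pump, rose from a mean of 4.75 eRPKM to 27.6 (log2 fold change 2.72 ± 0.72, adjusted p = 0.00965, limma). That control mean mixes sexes: the female controls 2 and 3 held 8.32 and 7.12 eRPKM and the male controls 1 and 4 held 2.51 and 1.055. The 7-day livers, all female, held 32.1, 22.0 and 28.7, and the female 3-day livers 3 and 4 held 27.2 and 4.45. The paralog Abcb1b rose from 1.08 to 3.29 (1.29). The basolateral conjugate pumps Abcc1 (1.93, from 1.15 to 5.85 eRPKM) and Abcc5 (1.77, from 2.16 to 8.51 eRPKM) rose like Abcc4, as did the carnitine and ergothioneine carrier Slc22a4 (1.87) and the prostaglandin carrier Slco2a1 (1.03). The remaining 2, Abcc12 and Slco1a6, averaged under 1 eRPKM and were named after their values were seen. Slc51b, a subunit of the basolateral bile acid exporter, was higher but not called (1.51 ± 0.53, adjusted p = 0.0397, limma), also named after its value was seen.

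Among 14 genes that anchor proteins or flip lipids at the canalicular membrane, 4 rose and 3 fell at 7 days. The shares over all tested genes were 18.0% and 5.77%. Ezr rose from 3.34 to 29.6 eRPKM (log2 fold change 3.04 ± 0.29) and Msn from 13.8 to 47.2 (1.74 ± 0.17), both linkers of membrane proteins to actin. Rdx, a linker of the same family, was lower but not called (66.7 to 47.4 eRPKM, -0.49 ± 0.13, adjusted p = 0.0104, limma). Rdx was named after its value was seen. Which cells of the liver the RNA of Ezr and Msn came from was not tested. Stx3, an apical syntaxin (1.11), also rose. Tmem30a, the partner subunit of the lipid flippases, fell (-1.26 ± 0.26), as did the scaffold Pdzk1 (-0.97). The last of the 7 called, the flippase gene Atp8b1 (-0.68), was named after its value was seen.

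Of 29 tested regulators of these transporters, 7 fell and 1 rose at 7 days, and none was called at 3 days. Over all tested genes 5.77% were called lower and 18.0% higher at 7 days. The farnesoid X receptor gene Nr1h4, the bile acid sensor that drives Abcb11, fell from a mean of 78.0 to 48.9 eRPKM (log2 fold change -0.67 ± 0.13, adjusted p = 0.00161, limma), and its target Nr0b2, which encodes the repressor SHP, fell from 33.6 to 8.23 (-1.98 ± 0.34). The constitutive androstane receptor gene Nr1i3 fell from 56.8 to 14.9 eRPKM (-1.84 ± 0.28), the growth hormone receptor gene Ghr from 188.2 to 47.5 (-1.94 ± 0.23) and Ppara from 121.7 to 47.7 (-1.35 ± 0.17). Klb, the coreceptor through which FGF15 restrains bile acid synthesis, fell by 0.95 on the log2 scale. Nfe2l2, which encodes the oxidative stress factor NRF2, was the one that rose, from 41.4 to 77.6 eRPKM (0.91 ± 0.19). The pregnane X receptor gene Nr1i2 (-0.01 ± 0.20) and Hnf4a (-0.35 ± 0.14, adjusted p = 0.0661, limma) were not called. Leaving out 7-day liver 1 or 3 brought the regulators called down to 5 or 4, all lower.

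**Figure D5:**
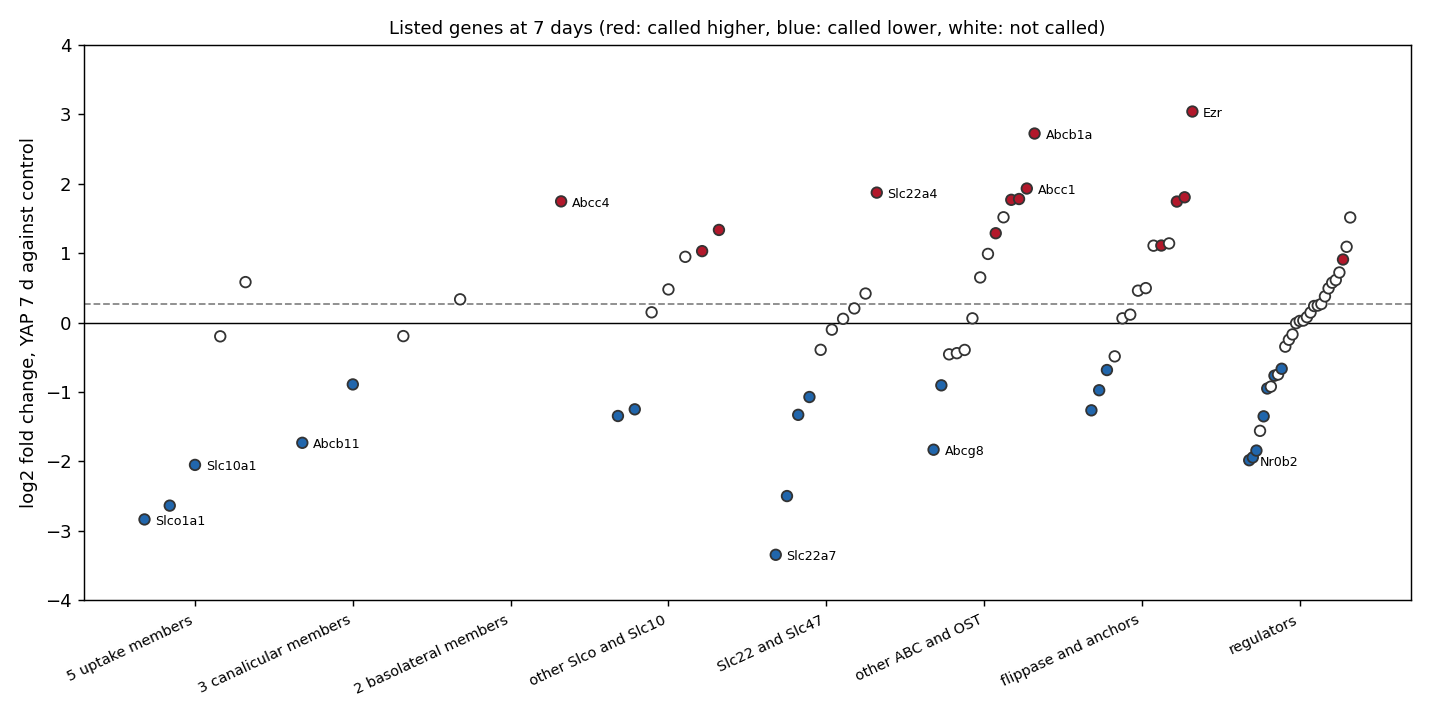
Log2 fold change at 7 days against control (y axis) of every tested gene in 8 groups: the 3 groups of the 10 transporters, 3 lists of other transporters, the flippase and anchor genes and the regulators, each ordered by value. Red points were called higher and blue lower, and the dashed line is the median of all tested genes, 0.26. Blue points outnumber red ones among the uptake members (3 against 0), the canalicular members (2 against 0), Slc22 and Slc47 (4 against 1) and the regulators (7 against 1). Red points outnumber blue ones among the basolateral members (1 against 0), other ABC and OST genes (5 against 2) and flippase and anchor genes (4 against 3). Other Slco and Slc10 genes hold 2 of each. Of all tested genes 5.77% were called lower and 18.0% higher.

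Some markers of other cells were called at 7 days, where 18.0% of tested genes were called higher and 5.77% lower. Of 5 macrophage markers tested, 3 rose, and their summed level was 194.5 to 393.2 eRPKM in controls and 651.0 to 741.8 at 7 days. Of 6 endothelial markers 2, Cdh5 and Lyve1, rose (summed level 108.7 to 192.7 and 183.4 to 217.7). Clec4g, the largest of them in controls, was lower but not called (mean 65.3 and 37.6 eRPKM). Of 7 tested cholangiocyte markers 1, Krt7, rose (mean 0.399 and 1.92 eRPKM). The summed level of that list (43.6 to 53.4 and 68.6 to 124.2) was mostly Spp1, which was not called (mean 38.7 and 67.4). All 6 cell cycle markers rose (8.08 to 21.6 and 117.1 to 181.1). Of 6 stellate cell markers 1 fell (147.5 to 206.4 and 99.9 to 110.3) and none of 6 lymphocyte markers was called. Of 8 hepatocyte markers 2 fell, Ttr (log2 fold change -1.40) and Tat (-0.88), and the list's median was -0.85, beside -0.89 for Abcc2 and -1.73 to -2.83 for Abcb11, Slc10a1, Slco1b2 and Slco1a1. The most abundant of these markers were near their 7-day level in control 2. Alb was at 267.7 eRPKM there against a 7-day mean of 248.8, and Apoa1 at 254.8 against 264.3. Apob was at 265.5 against 254.0 and Trf at 193.5 against 209.1. Reads on Alb, Apoa1 and Apob spread only 1.28-fold, 1.39-fold and 1.38-fold over all libraries, while depth spread 4.75-fold. At like depth the eRPKM of such genes come out alike, so this nearness does not measure hepatocyte content. The list's median includes these genes and the shallow controls. Ttr and Tat were still higher in control 2, at 172.6 and 206.0 against 99.8 and 144.2. In whole-liver RNA, fewer hepatocytes and less transporter RNA per hepatocyte cannot be told apart. The part of these other cells in the transporter values was not tested. Slco2b1, Abcb4 and Abcc3 were not called lower in the same livers. This does not separate fewer hepatocytes from less transporter RNA per hepatocyte. The cells of origin of these transporter RNAs were not tested.

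Over the 11 livers the genes most like Slc10a1 in log2 level, among 9323 genes with a mean of at least 5 eRPKM, were Ces1d (r = 0.993), Cyb5b (0.993) and Haao (0.992). Abcb11 was most like Nrn1 (0.990), Ces1d (0.988) and Msmo1 (0.983), and Slco1a1 most like Ldhd (0.9754), Rdx (0.974) and Tprkb (0.969). For Abcc4 they were AI661453 (0.970), Cyb5r1 (0.968) and Mgat4b (0.967). Among the 5 transporters that fell, r ran from 0.798 (Slco1a1 with Abcc2) to 0.989 (Slc10a1 with Slco1b2). With the group means removed it ran from 0.289 (Abcb11 with Abcc2) to 0.897 (Slc10a1 with Slco1b2). The points share libraries, depth and the step from 3 to 7 days.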

How the data were processed

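Whole-liver RNA of 11 mice was prepared with a TruSeq RNA v2 kit. The authors masked low-quality bases with fastq_masker, aligned reads without strand to mm9 with TopHat2 2.0.8 and deposited eRPKM, a kind of RPKM, per liver. The submitters' notes also name featureCounts 1.4.5-p1, SAMtools and DESeq2 by name. The annotation and the handling of duplicate reads are not given in the sources used here. The table also holds the authors' comparison of 7 days with control (fold change, p-value), which was not used. eRPKM steps gave whole reads for 174375 of 174375 values (100%, within 0.02 reads), used for depth and 1 alternative.

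The 14244 genes that reached 0.5 eRPKM in 3 or more livers were tested with limma 3.58.1 (R 4.3.3, trend) on log2(eRPKM + 0.5), 3 groups in one fit. This scale understates changes of low genes. Exact two-sided permutation tests over livers used scipy 1.17.1. Each library is a separate liver. The transporters and lists were chosen with earlier results of these data known. Named were all 10 transporters, up to 6 called genes per list with a mean of at least 1 eRPKM, and fixed regulators, of which some are not reported here. Sex was read from Xist and Y-linked genes. Alternatives covered pseudocount, filter, scaling, fit, replicate number, sex, depth and each liver left out. Gene positions are from GENCODE M1. The limma code was tested on simulated data.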

Additional observations from a re-analysis of the deposited data

Results flagged for a closer look

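Abcc4 had 1 liver far from the others at 3 days, with 4.34 eRPKM against 0.988 to 1.34, a gap of 0.895 of the whole range, and its ratio to Abcc3 put the same liver apart (0.0506 against 0.0156 to 0.0212, a gap of 0.838). Abcc2 at 3 days had a low liver, 107.0 eRPKM against 122.5 to 125.4 (gap 0.845 of the range). The ratio of Slc10a1 to Abcb11 was 1.61 in control 4 and 1.14 to 1.15 in the other controls (gap 0.974). Control 4 is the shallowest library, with 1251343 reads. These 4 came from 42 sets of 4 livers, of which chance marks about 1 in 20.

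The changes at 3 and at 7 days, both set against the same controls, differed by the test of 7 against 3 days for 5 transporters, with log2 differences of -1.83 for Slc10a1, -3.22 for Slco1a1, -2.46 for Slco1b2, -1.45 for Abcb11 and -0.60 for Abcc2.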

How the results depend on the processing

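Each transporter was refitted in 27 alternatives for each of 3 comparisons, 810 values in all, of which 755 kept their direction and their side of the threshold, 23 lost a call, 7 gained one and 25 changed sign, none of them a called result. The 7-day calls of Slc10a1 (log2 fold change -2.32 to -1.62), Slco1b2 (-2.91 to -1.95), Abcb11 (-2.01 to -1.48) and Abcc2 (-1.17 to -0.52) were kept in all 27, and that of Slco1a1 (-3.22 to -2.09) in 25. Abcc4 at 7 days lost its call in 11, with depth as a covariate (1.33, adjusted p = 0.0609, limma) and with controls 1 and 2 only (1.37, adjusted p = 0.0502, limma) among them. That last alternative was chosen after seeing the data. The other transporters called at 7 days numbered 8 with depth as a covariate against 16, and the regulators 4 to 10 with 1 liver left out against 8. With 1 liver left out the counts of called transporters were 5 to 6 at 7 days and 4 to 7 between 7 and 3 days.

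Values that changed sign were all small. At 3 days they were 0.0936 for Slc10a1 and -0.16 for Slco1a4, 0.28 for Slco1b2 and -0.083 for Abcc4 with controls 1 and 2 only. Slco1a4 at 3 days gave -0.0215 with size factors, -0.11 after quantile normalization, -0.0657 with depth, -0.0107 with voom on recovered reads, and -0.17 to 0.234 with 1 liver left out (below 0 without control 4 or 3-day liver 3 or 4). Slco1b2 gave 0.0044 with depth and -0.355 to 0.10 with 1 liver left out (above 0 without control 4), and Abcc4 -0.10 to 0.465 with 1 liver left out (below 0 without 3-day liver 3). Slco2b1 gave 0.28 with the label suffix MF, of unknown meaning, as a covariate, and -0.269 to 0.13 with 1 liver left out (above 0 without control 2 or 3-day liver 1 or 4), and Abcb4 gave 0.0714 with the suffix and -0.192 to 0.0456 with 1 liver left out (above 0 without control 3 or 3-day liver 1). At 7 days Slco2b1 gave 0.0395 with the suffix, and between 7 and 3 days -0.33 to 0.0705 with 1 liver left out (above 0 without 3-day liver 3 or 7-day liver 2), while Abcb4 gave 0.14 after quantile normalization. Female minus male, quantile normalization gave 0.12 for Slc10a1, 0.12 for Abcb11 and 0.0128 for Abcc2. Slc10a1 gave -0.279 to 0.0568 with 1 liver left out (above 0 without control 4), Abcb11 0.0005 without control 2 and 0.0017 without 3-day liver 1, and Abcc4 -0.12 in controls alone. The cause was not tested.

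The deviations of same-numbered livers from their group means had correlations of -0.22 to 0.27. Livers of different numbers were not compared, so this does not settle whether the numbers pair them. The main fit did not pair them. With the replicate number as a block 5 transporters were called at 7 days and 4 between 7 and 3 days, with Abcc4 (1.65, adjusted p = 0.015, limma) and Abcc2 (-0.61, adjusted p = 0.0151, limma) lost, and 13 other transporters and 7 regulators were called at 7 days. Depth limits Abcc4, with 7 to 56 reads in controls, and moves abundant genes: with depth as a covariate the 7-day values were -2.09 for Slco1a1 and -1.95 for Slco1b2.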
